A study of Homo sapiens with 11 samples.

Results

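The elements described are the L2, CR1 and RTE long interspersed elements (LINEs) of the human genome, as captured in libraries of RNA enriched with J2, an antibody against double-stranded RNA. They were chosen by class name alone, with no measured value: an element belongs if its name in the deposited repeat tables starts with the class L2, CR1 or RTE. The rule took 629166 of 5622516 repeat elements, of which 534592 are L2, 69667 are CR1 and 24907 are RTE. They carry 48 repeat names, 16 of L2, 26 of CR1 and 6 of RTE.

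L2, CR1 and RTE are old families of retrotransposon without long terminal repeats, which once copied themselves through an RNA intermediate and a reverse transcriptase of their own. In the human genome they no longer move, and what is left are short, diverged fossils scattered through introns and between genes, so that an RNA read from such an element can belong to a longer host transcript. L2 is the most abundant of them, the mammalian CR1 copies are mostly called L3, and the RTE copies include MamRTE1 and the L4 and L5 names. When copies of a repeat lie in opposite orientation in one transcript, or when both strands of a locus are transcribed, their RNA can pair into a double strand. Staufen1 is a protein that binds double-stranded RNA.

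The study used HCT116, a line established from a human colorectal cancer. The cells received an siRNA against luciferase (siLuc, a control with no human target) or against Staufen1 (siStau1), together with the solvent DMSO or with decitabine (DAC), a cytidine analogue that blocks DNA methylation, at 500 nM for 5 days. J2-bound RNA was sequenced in 3 libraries, 1 each of siLuc with DMSO, siLuc with DAC and siStau1 with DAC. J2-bound RNA of siStau1 cells given DMSO was not analysed here, so the effect of siStau1 without the drug cannot be told. The 8 total RNA libraries cover 4 groups of 2, the same 3 conditions and siStau1 with DMSO, and enter here only through the authors' values per gene. All cells carry an siRNA, and the label of the enriched libraries names J2 while the protocol text shared by all libraries names an antibody against Staufen1, so which antibody was used is uncertain.

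With 1 J2 library per condition there is no replicate, no test was made, and a difference below is one between libraries. The libraries held 71473124 (siLuc DMSO), 68944777 (siLuc DAC) and 83037330 (siStau1 DAC) reads on repeats. Alu elements took 57.5%, 46.8% and 54.0% of these reads in the same order, so a share of all repeat reads moves with Alu, and its part in the differences below was not tested. Intervals of shares and of ratios of sums cover counting error only, and no molecular identifiers are named for these reads. Intervals of medians describe the spread over elements within these libraries. They treat elements as independent, although neighbouring rows went together, as given below. No interval covers variation between libraries of a condition. In the authors' deposited table of total RNA, STAU1, the gene the siRNA targets, stood at 35.5 FPKM with siLuc and DMSO, 33.7 with siLuc and DAC, and 27.1 with siStau1 and DAC. The authors' q-value for siStau1 against siLuc with DAC was 0.685 in their deposited table, so the difference in STAU1 mRNA did not pass in the authors' test. The same deposited table gives EPCAM, an epithelial surface protein, at 259, 117 and 179 FPKM with siLuc and DMSO, siLuc and DAC, and siStau1 and DAC. Other epithelial genes there had the opposite order of siLuc DMSO and siLuc DAC, with CDH1 at 14.3, 26.5 and 25.9 FPKM and KRT18 at 681, 3469 and 2415 FPKM. PTPRC, a leukocyte marker, stood at 0, 0.174 and 0.820 FPKM in that deposited table, and COL1A1, a fibroblast collagen, at 1.59, 8.60 and 5.65 FPKM. The authors' q-values for siLuc DAC against siLuc DMSO were 0.016 for EPCAM, 0.086 for CDH1, 0.077 for KRT18 and 0.059 for COL1A1.

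L2, CR1 and RTE elements took more of the repeat reads in both decitabine libraries than in the siLuc DMSO library, and the most in siLuc DAC. Together they held 1887947, 2888021 and 3030426 reads in siLuc DMSO, siLuc DAC and siStau1 DAC. These are 2.64% (95% Wilson interval 2.638 to 2.645), 4.19% (4.184 to 4.194) and 3.65% (3.645 to 3.654) of all reads on repeats. The siLuc DAC share was 1.59-fold that of siLuc DMSO, and the siStau1 DAC share lay between them, at 0.871 of the siLuc DAC share.

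The order was the same in each of the classes. L2 held 2.195%, 3.45% and 2.97% of repeat reads in siLuc DMSO, siLuc DAC and siStau1 DAC. CR1 held 0.329%, 0.544% and 0.495%, and RTE held 0.117%, 0.198% and 0.185%. On the log2 scale the sums of siLuc DAC stood 0.65 above siLuc DMSO for L2, 0.72 for CR1 and 0.76 for RTE. The sums of siStau1 DAC stood below siLuc DAC, at -0.22 for L2, -0.13 for CR1 and -0.10 for RTE. RTE, the rarest class, had the highest ratio of sums in both comparisons and L2 the lowest. By the median of single elements, RTE was instead the lowest for siStau1 DAC over siLuc DAC, at -0.32 against -0.27 for L2 and -0.21 for CR1.

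The order of the 2 decitabine libraries turned on the denominator. As a share of reads outside Alu, the members held 6.21%, 7.87% and 7.93% in siLuc DMSO, siLuc DAC and siStau1 DAC. L2 then held 5.16%, 6.48% and 6.45%, CR1 0.774%, 1.02% and 1.08%, and RTE 0.275%, 0.373% and 0.402%. Against reads outside Alu, siStau1 DAC was thus a little above siLuc DAC for CR1 and RTE and slightly below it for L2, while siLuc DMSO stayed the lowest for each class. The deposited classes RNA, srpRNA (signal recognition particle RNA) and snRNA are together called the structural RNA classes here, and no other RNA class was left out. With these left out as well, the shares of all members were 11.7%, 12.8% and 12.6%, and the gap between siLuc DMSO and siLuc DAC was 0.12 on the log2 scale.

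**Figure D1:**
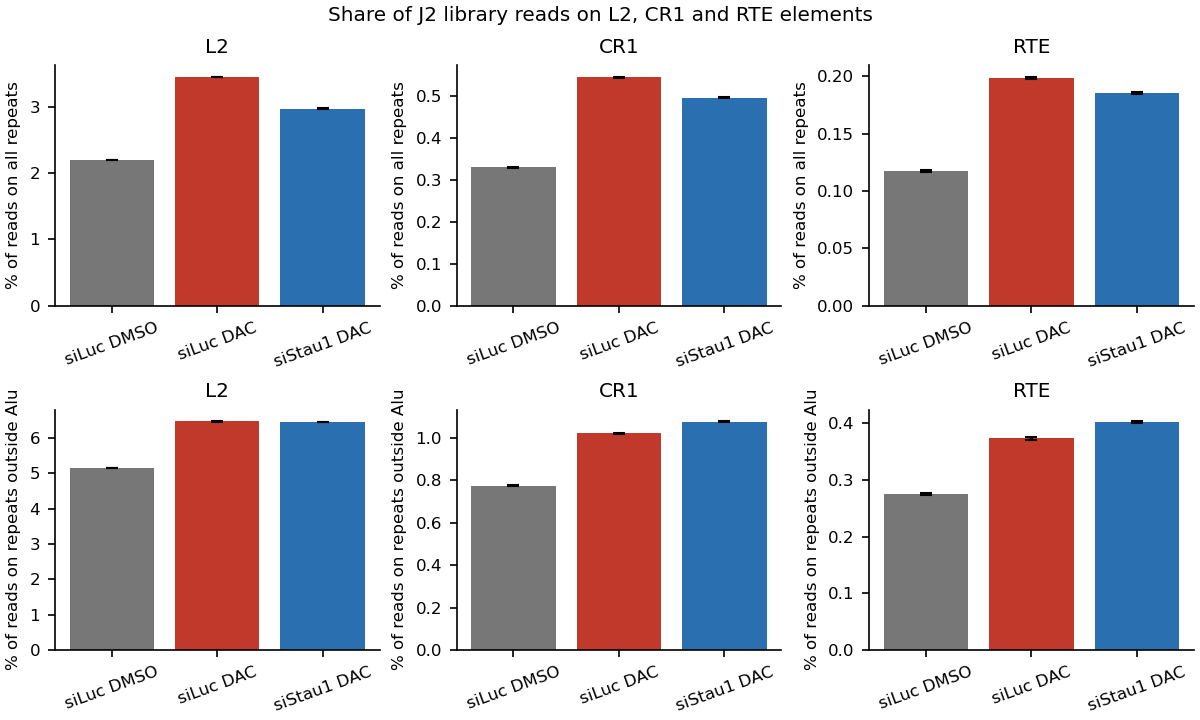
Bars give the percent of reads on L2, CR1 and RTE elements in each of the 3 J2 libraries, of all repeat reads (top row) and of repeat reads outside Alu (bottom row), with 95% Wilson intervals as error bars. The siLuc DMSO library was lowest in every panel, and the siLuc DAC library was highest in the top row (3.45% for L2), while in the bottom row siStau1 DAC was the higher for CR1 and RTE.

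Most single elements held no read. Of the 629166 members, 435525 (69.2%, against 65.6% of all repeat elements) had no read in any of the 3 libraries and 76088 (12.1%, against 16.2%) had at least 1 read in each. A read was found in 17.7% of members with siLuc DMSO, in 22.8% with siLuc DAC and in 21.9% with siStau1 DAC. Over all repeat elements the shares were 23.6%, 24.8% and 26.0%, so the gap between siLuc DMSO and siLuc DAC was wider among the members. Within the classes it was 18.0% against 22.9% for L2, 16.4% against 22.5% for CR1 and 14.9% against 22.2% for RTE. In 32911 members (5.23%, against 4.08% of all repeat elements) reads were found in the siLuc DAC library alone. Reads in siLuc DMSO alone were found in 13262 (2.11%, against 2.78%), and in siStau1 DAC alone in 24470 (3.89%, against 3.74%), the last close to repeats in general. A further 25175 (4.001%, against 2.96%) had reads in both decitabine libraries and not in siLuc DMSO.

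Reads were concentrated on few loci, less so than over all repeat elements. The 1% of members with the most reads held 52.4%, 45.9% and 49.8% of member reads in siLuc DMSO, siLuc DAC and siStau1 DAC, where the top 1% of all repeat elements held 64.0%, 63.2% and 62.1%. A detected member had a median of 4, 6 and 6 reads. RTE was the most concentrated class, with 71.3%, 60.1% and 68.0% of its reads in the top 1%. In each of the 3 classes this share was lowest in the siLuc DAC library, in which reads were spread over more elements. It was lowest there in MIR (44.9%), hAT (48.6%) and L1M (50.6%) as well.

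Single elements were compared where they had at least 20 reads in the 2 libraries together, which left 43530 of the 629166 members (6.92%) for siLuc DAC over siLuc DMSO. The rest were too thinly read for a ratio. Ratios are of reads scaled to the library total on repeats, with 0.5 reads added, and stand on the log2 scale. Over these members the median ratio was 0.77 (95% interval 0.75 to 0.79), while the median over all repeat elements was 0.01. Of the members, 18705 (43.0%) were more than 2-fold higher in siLuc DAC, where 21.3% of all repeat elements were, and 2928 (6.73%) were more than 2-fold lower, where 17% of all repeat elements were. The members thus held more elements beyond 2-fold higher, and fewer beyond 2-fold lower, than repeats in general.

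The median was 0.75 for L2 (n = 37546), 0.78 for CR1 (n = 4598) and 1.16 for RTE (n = 1386). Other old repeats that like these are mostly short fossils in introns stood on either side. MIR, a short interspersed element whose tail resembles L2, had a median of 0.46, hAT DNA transposons 0.72, and L1M, the old L1 elements, 1.48. The siLuc DAC ratio is therefore not particular to L2, CR1 or RTE. Of the members beyond 2-fold, 86.5% were the higher in siLuc DAC, and this split became 96.6% with the authors' own factors, 76.3% scaled to reads outside Alu, and 67.1% with the structural RNA classes left out too.

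For siStau1 DAC over siLuc DAC the median of the members was -0.27 (n = 51035), against 0.03 over all repeat elements. It was -0.27 for L2, -0.21 for CR1 (95% interval -0.27 to -0.18) and -0.32 for RTE (-0.36 to -0.27). More than 2-fold lower in siStau1 DAC were 12197 members (23.9%, against 14.8% of all repeat elements), and 5687 (11.1%, against 15.5%) were more than 2-fold higher. The members thus leaned towards lower values in siStau1 DAC, as did L1M with a median of -0.67, while MIR stood nearer 0, at -0.07. The higher ones made up 31.8% of the members beyond 2-fold. That split was 18.1% with the authors' factors and 43.9% scaled to reads outside Alu, where the median was -0.06, and 42.2% with the structural RNA classes left out too.

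The comparison of siStau1 DAC with siLuc DMSO differs in both siRNA and drug. Here the members had a median of 0.47 (0.46 to 0.48; n = 41887), against 0.04 over all repeat elements. The medians were 0.45 for L2, 0.53 for CR1 and 0.76 for RTE. Of the members, 11999 (28.6%, against 14.5% of all repeat elements) were more than 2-fold higher in siStau1 DAC and 1866 (4.45%, against 8.27%) more than 2-fold lower. The higher ones were 86.5% of those beyond 2-fold, 97.4% with the authors' factors, 81.8% scaled to reads outside Alu and 67.2% with the structural RNA classes left out too. The 3 comparisons share libraries, so their values are not independent of each other. Another scaling shifts every element of a comparison alike, for siLuc DAC over siLuc DMSO by 0.89 with the authors' factors, by -0.32 outside Alu and by -0.54 with the structural RNA classes left out too. What no scaling alters is the distance of the members' median from that of all repeat elements, which was 0.75 for siLuc DAC over siLuc DMSO, -0.29 for siStau1 DAC over siLuc DAC and 0.43 for siStau1 DAC over siLuc DMSO. All repeat elements include Alu, whose part in this distance was not tested. In the same order the distance was 0.44, -0.09 and 0.35 for MIR, 0.71, -0.21 and 0.45 for hAT, and 1.46, -0.69 and 0.61 for L1M.

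**Figure D2:**
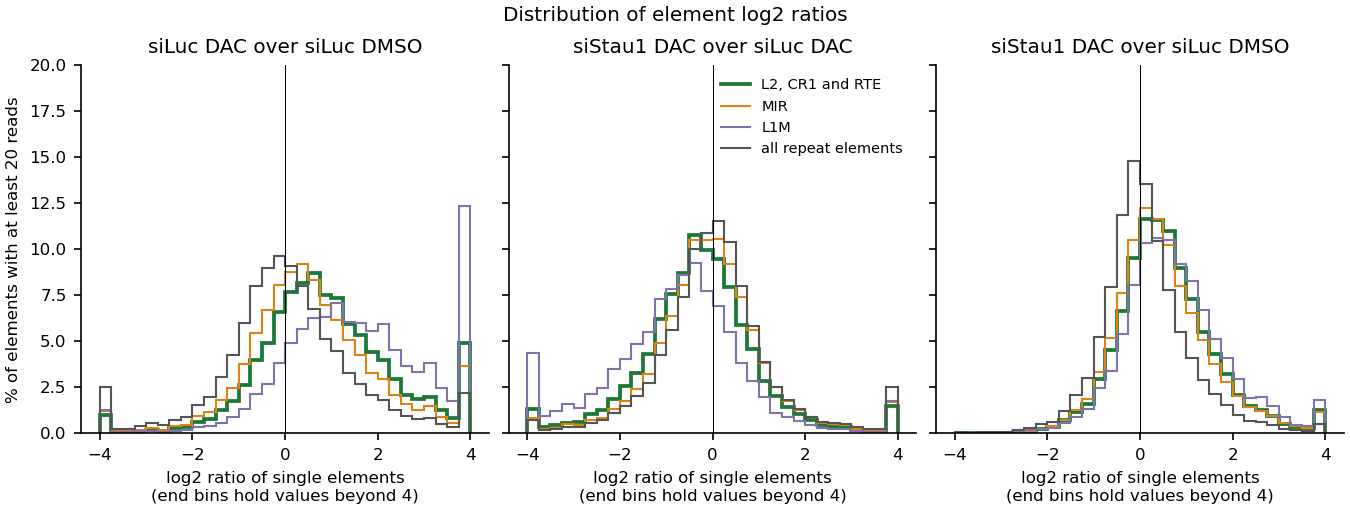
Histograms give the percent of elements (y axis; at least 20 reads in the pair of libraries) by log2 ratio (x axis, with end bins that hold values beyond 4) for L2, CR1 and RTE elements, MIR, L1M and all repeat elements. In the left panel the members (median 0.77) lie between MIR and L1M and to the right of all repeats, and in the middle panel they lie to the left of all repeats (median -0.27).

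Which library held the most of an element can be read without a fold threshold. Over the 59556 members with at least 20 reads in the 3 libraries, the scaled reads were highest in siLuc DAC for 32047 (53.8%, against 36.9% of all repeat elements). They were highest in siStau1 DAC for 19257 (32.3%, against 30.4%) and in siLuc DMSO for 8252 (13.9%, against 32.6%). The siLuc DMSO library was the lowest for 59.1% of the members, where it was the lowest for 37.3% of all repeat elements. The siLuc DAC library was the lowest for 20.8% (against 38.5%) and siStau1 DAC for 20.1% (against 24.2%). Each element was given a single lowest library, even where libraries were level with no read. Such ties were not counted, so their part in the lowest shares was not tested. All these shares rest on reads scaled to the library total on repeats, and other scalings were not tried for them. Among L2, CR1 and RTE, the shift away from siLuc DMSO was widest in RTE, where that library was the highest for 9.63% and the lowest for 67.5% of 1910 elements. Other old repeats shared this shift. The siLuc DMSO library was the highest for 8.25% and the lowest for 67.2% of L1M elements. For hAT these were 14.5% and 58.0%, and for MIR 18.0% and 53.2%.

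The ratios were nearer to 0 in elements with more reads. From elements with 20 to 49 reads over the 3 libraries, through 50 to 99 and 100 to 499, to those with 500 or more, the median for siLuc DAC over siLuc DMSO went 1.00, 0.80, 0.54 and 0.41. For siStau1 DAC over siLuc DAC it went -0.37, -0.27, -0.12 and -0.03, the last with an interval from -0.06 to 0.00. For siStau1 DAC over siLuc DMSO it went 0.65, 0.54, 0.42 and 0.35. Among the 1803 members with 500 or more reads, the 2 decitabine libraries were therefore nearly level, and both stood above siLuc DMSO with this scaling. Their direction against siLuc DMSO turned with Alu and the structural RNA classes left out of the totals, where the medians were -0.13 for siLuc DAC and -0.02 for siStau1 DAC, while outside Alu alone they were 0.09 and 0.24. For siStau1 DAC over siLuc DAC these same members had a median of 0.18 outside Alu and 0.14 with the structural RNA classes left out too, so this direction turned as well. It also turned in the 13783 members with 100 to 499 reads, to 0.09 and 0.06 in the same scalings. In those members siLuc DAC over siLuc DMSO stood at 0.22 and -0.0005, and siStau1 DAC over siLuc DMSO at 0.31 and 0.05. MIR (0.79 to 0.24), L1M (1.84 to 0.51) and all repeat elements (0.22 to -0.18) also had lower medians with more reads for siLuc DAC over siLuc DMSO, so the members are not alone in this.

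**Figure D3:**
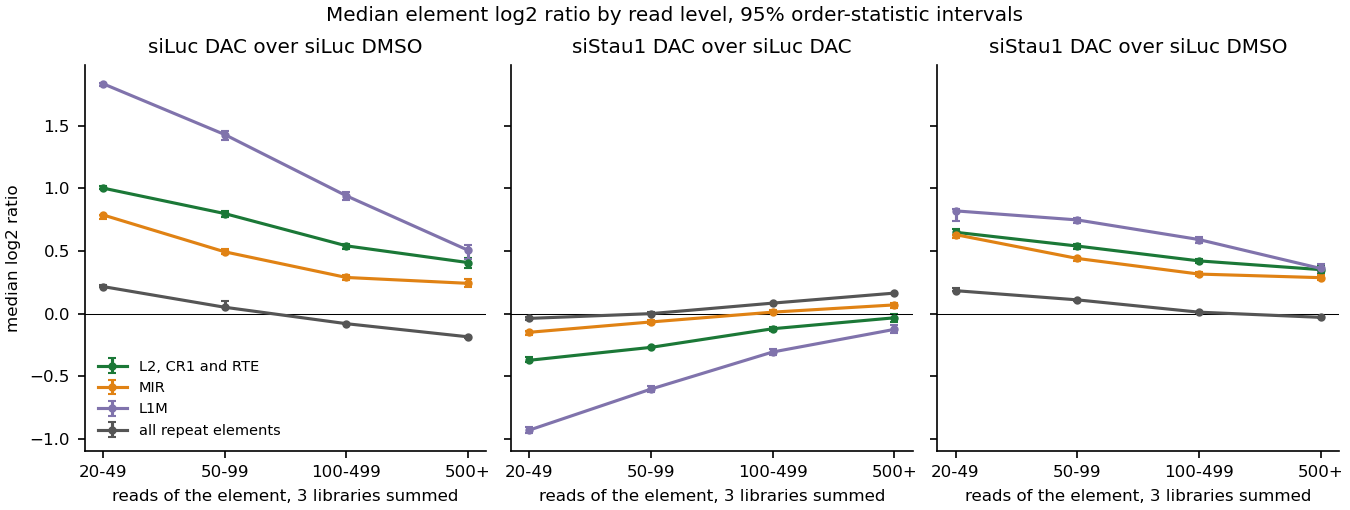
Points give the median log2 ratio of single elements (y axis) by the element's reads summed over the 3 libraries (x axis), with 95% order-statistic intervals, for L2, CR1 and RTE elements, MIR, L1M and all repeat elements. In the left panel the members run from 1.00 down to 0.41, and in the middle panel from -0.37 up to -0.03.

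By repeat name, 31 of the 48 names had at least 1000 reads over the 3 libraries and together held 99.9% of the member reads. Summed over its elements, each of these 31 names held a higher share of repeat reads in siLuc DAC than in siLuc DMSO, with 95% counting intervals wholly above 0 for 30. Scaled to reads outside Alu, 30 names were higher, and 28 with the structural RNA classes left out too, where L2-2_Mam, L2b and L3b stood below 0. Over all repeat names with as many reads, 82.2% were higher in siLuc DAC, so the direction is common to most names. The log2 ratios of the sums ran from 0.02 for L2-2_Mam to 1.96 for X8_LINE, with a median of 0.82 over the names. In siStau1 DAC over siLuc DAC, 2 of the 31 names stood above 0, where 35.4% of all repeat names did, and 26 had intervals wholly below 0. Scaled to reads outside Alu, 12 of the 31 stood above 0, so the direction of this comparison by name depended on the denominator. All 31 names were higher in siStau1 DAC than in siLuc DMSO, by 0.34 to 1.73, as were 86.6% of all repeat names. With Alu and the structural RNA classes left out, 29 of the 31 were higher, the exceptions being L2b and X15_LINE.

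Among the L2 names, L2a is the most numerous, with 170012 elements that held 438480, 703164 and 700150 reads in siLuc DMSO, siLuc DAC and siStau1 DAC. Its log2 ratio of sums was 0.73 for siLuc DAC over siLuc DMSO and -0.27 for siStau1 DAC over siLuc DAC. L2b held 423040, 544535 and 620167 reads on 93700 elements, with ratios of 0.42 and -0.08. It was the most often detected of the 31 names, with a read in 22.7% of its elements in siLuc DMSO and 25.8% in siLuc DAC. L2c held 370322, 583322 and 596709 reads, and its ratios of 0.71 and -0.24 were close to those of L2a. L2d2, with 101568, 173486 and 168529 reads and ratios of 0.82 and -0.31, stood at the other end of the 6 large L2 names from L2b. The name L2 without a letter (0.73 and -0.27) and L2d (0.68 and -0.21) lay between.

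The smaller L2 names hold 243 to 1749 elements each, apart from UCON49 with 109, and single loci held much of the reads of some. L2-2_Mam held 6800, 6659 and 10246 reads in siLuc DMSO, siLuc DAC and siStau1 DAC, but 64.1% of them lay on a single element, L2-2_Mam_181_7. It was level between siLuc DMSO and siLuc DAC (0.02, interval -0.03 to 0.07) and higher in siStau1 DAC than in siLuc DAC (0.35). Without that element the ratios were 0.28 and 0.11, so the name stayed above 0 in both. X15_LINE had 68.2% of its reads on 1 element, and its ratio for siStau1 DAC over siLuc DAC went from -0.56 to -0.05 without it. UCON49 (1.41) and L2-1_AMi (1.17) had the highest ratios for siLuc DAC over siLuc DMSO among the L2 names with at least 1000 reads.

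In CR1, L3 held 169558, 269553 and 294511 reads on 46112 elements, with log2 ratios of 0.72 for siLuc DAC over siLuc DMSO and -0.14 for siStau1 DAC over siLuc DAC. L3b held 36263, 49509 and 57129 reads, and its ratios of 0.50 and -0.06 were nearer to 0 than those of L3. CR1_Mam held 2648, 5894 and 5093 reads, with 1.21 and -0.48. The 2 largest CR1 names thus differed less between these libraries than CR1_Mam, whose reads lie on many loci (4.10% on the top one). X6B_LINE held 4704, 11858 and 13162 reads, a ratio of 1.39 for the first pair. With 61.6% of its reads on X6B_LINE_207_5, its ratio was 1.08 without that element. X6A_LINE, with 4772, 7174 and 9935 reads, was the other name above 0 in siStau1 DAC over siLuc DAC, at 0.20. That direction rested on X6A_LINE_200_4 (1065, 1480 and 3899 reads), since without it the ratio was -0.18, and it was -0.12 with the authors' factors. X8_LINE, with 155, 582 and 597 reads on 231 elements, had a ratio with a wide interval (1.70 to 2.23).

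The larger RTE names differed among themselves. MamRTE1 held 54861, 84908 and 100127 reads, with a log2 ratio of 0.68 for siLuc DAC over siLuc DMSO and -0.03 for siStau1 DAC over siLuc DAC. L4_A_Mam, with 16814, 25770 and 29584 reads, was close to it, at 0.67 and -0.07. L4_B_Mam (5024, 11138 and 10310 reads) stood at 1.20 and -0.38, L4_C_Mam (6334, 13377 and 12154 reads) at 1.13 and -0.41, and L5 (622, 1562 and 1360 reads) at 1.38 and -0.47. The last 3 were thus more than 2-fold above siLuc DMSO in siLuc DAC and lower in siStau1 DAC than in siLuc DAC. By the median of single elements the order was much the same, at 1.01 for MamRTE1 and 1.12 for L4_A_Mam against 1.30 for L4_B_Mam, 1.41 for L4_C_Mam and 1.85 for L5.

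**Figure D4:**
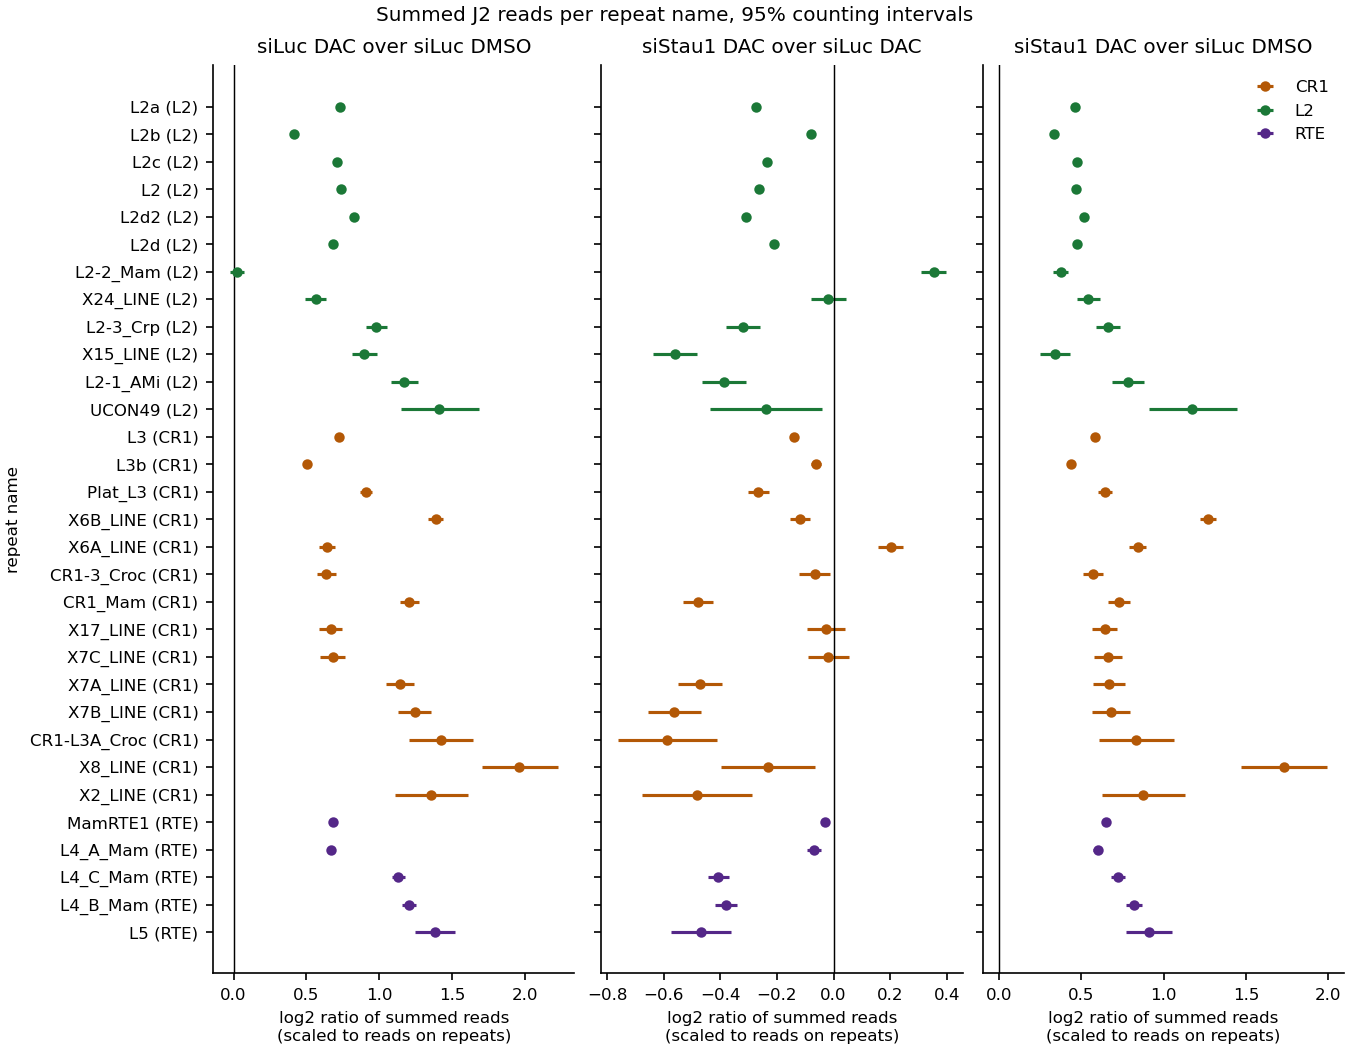
Points give the log2 ratio of summed, scaled reads (x axis) for each of the 31 repeat names with at least 1000 reads (y axis), with 95% counting intervals, in the 3 pairs of J2 libraries. All points of the left and right panels lie above 0, and in the middle panel only L2-2_Mam (0.35) and X6A_LINE (0.20) do.

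The 17 names with fewer than 1000 reads hold 1421 elements and 1 to 785 reads each. Of the 16 that had a value, 14 were above siLuc DMSO in siLuc DAC, 2 were higher in siStau1 DAC than in siLuc DAC, and 13 were higher in siStau1 DAC than in siLuc DMSO. Across the 31 larger names, the siLuc DAC over siLuc DMSO ratio was lower where a name had more reads per element (Spearman -0.69, Pearson -0.63). The siStau1 DAC over siLuc DAC ratio was higher there (0.72 and 0.69). These are descriptions over names that come from the same 3 libraries.

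The most read single elements did not share a pattern. L2a_431_99, which alone held 0.875% of the siLuc DMSO member reads, had 16519, 24038 and 28325 reads in siLuc DMSO, siLuc DAC and siStau1 DAC. Its log2 ratio was 0.59 for siLuc DAC over siLuc DMSO and -0.03 for siStau1 DAC over siLuc DAC. L2a_246_298 had 1946, 10108 and 4215 reads, so that it stood at 2.43 in the first comparison and at -1.53 in the second. L2-2_Mam_181_7, with 4493, 3954 and 6739 reads, was instead lower in siLuc DAC than in siLuc DMSO (-0.13) and higher in siStau1 DAC than in siLuc DAC (0.50).

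Among CR1 elements, L3_203_212 had 5725, 15767 and 14976 reads, at 1.51 and -0.34. L3_599_10 (4745, 6258 and 10956 reads) was highest in siStau1 DAC, with 0.45 and 0.54. X6B_LINE_207_5 (2262, 6864 and 9181 reads) was about as high in both decitabine libraries after scaling, at 1.65 and 0.15. So the 3 most read CR1 elements were all lowest in siLuc DMSO, and they differed in which decitabine library was the higher.

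The most read RTE elements are all MamRTE1. MamRTE1_185_63 had 5423, 9449 and 10402 reads in siLuc DMSO, siLuc DAC and siStau1 DAC, at 0.85 and -0.13. It lies 6 rows from L2c_470_46 in the deposited table, the most read L2c element (4944, 4555 and 5545 reads). MamRTE1_195_8 had 2834, 3500 and 5853 reads, at 0.36 and 0.47, and MamRTE1_198_90 had 2849, 3211 and 4260, at 0.22 and 0.14. Before scaling, all 3 had their most reads in siStau1 DAC. Scaled to the library total on repeats, MamRTE1_185_63 was instead higher in siLuc DAC than in siStau1 DAC.

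Among elements whose reads in the pair summed to 100 or more, the highest for siLuc DAC over siLuc DMSO had no read in siLuc DMSO. UCON49_348 had 0, 116 and 15 reads in siLuc DMSO, siLuc DAC and siStau1 DAC. With siLuc DMSO set to a floor of 3 reads, it was 40.1-fold higher in siLuc DAC, a log2 ratio of 5.32. Its counting interval began lower, at 5.00, so the fold at the floor is not a lower limit. With the same floor L2a_1179_7 (0, 110 and 14 reads) was 38.0-fold higher, and L2c_211_94 (0, 106 and 39 reads) 36.6-fold higher. In each of these elements siStau1 DAC also had reads, fewer than siLuc DAC.

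The elements at the other end had reads in both of the other libraries and almost none in siLuc DAC. L2b_202_193 had 1108, 0 and 1134 reads. With siLuc DAC set to the floor of 3 reads, it was 356-fold lower there than in siLuc DMSO, a log2 ratio of -8.48. The counting interval ended nearer to 0, at -8.18. With the same floor it was 314-fold higher in siStau1 DAC than in siLuc DAC. L2_364_24 had 2329, 4 and 2913 reads, with log2 ratios of -8.96 and 9.07. L2b_359_78 had 253, 0 and 256 reads, 81.4-fold lower and 70.9-fold higher with that floor. These were the lowest for siLuc DAC over siLuc DMSO and also the highest for siStau1 DAC over siLuc DAC, 2 comparisons that share the siLuc DAC library, while siLuc DMSO and siStau1 DAC had nearly equal numbers of reads.

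Elements lowest for siStau1 DAC over siLuc DAC were low in siLuc DMSO too. L2a_1303_25 had 13, 102 and 2 reads (-5.63, counting interval -9.01 to -4.05), L2c_317_299 had 5, 107 and 4 (-4.85), and L2a_2216_2 had 8, 102 and 6 (-4.25). In these the siLuc DAC library stood alone. Highest for siStau1 DAC over siLuc DMSO were L2a_318_102 with 7, 136 and 230 reads (4.73), L3_248_106 with 3, 64 and 103 (4.67, counting interval 3.30 to 7.19) and L2_288_18 with 6, 77 and 129 (4.10). In each of these both decitabine libraries were high and siLuc DMSO was low. Lowest in that comparison were L2a_769_34 with 94, 47 and 27 reads (-2.00), L2b_200_2 with 115, 130 and 38 (-1.80) and L3_185_324 with 81, 5 and 30 (-1.63). The lowest ratios of this comparison thus lay much nearer to 0 than the highest.

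Members with no read in 1 library and many in the others were mainly empty in siLuc DAC. Of 17573 members with 20 or more reads in both other libraries, 254 (1.45%) had 0 reads in siLuc DAC, compared with 2.15% of all repeat elements. In siLuc DMSO 141 of 22369 (0.630%, against 0.202%) had 0 reads, and in siStau1 DAC 2 of 16185 (0.0124%, against 0.0042%). At 100 reads in both others, 19 of 2757 members (0.689%, against 0.681% of all repeat elements) were at 0 in siLuc DAC, and none in siLuc DMSO (against 0.00106%) or siStau1 DAC. The members' share at 0 in siLuc DAC was thus below that of repeats in general at 20 reads and close to it at 100.

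These empty elements lay together in the deposited table, whose row order is not stated and which gives no positions. The 19 members fell in 10 stretches of rows no more than 200 rows apart, and 13 of them in 4 stretches. In the 21 rows around L2b_202_193, which also hold L2_364_24, there were 7668, 4 and 8879 reads in siLuc DMSO, siLuc DAC and siStau1 DAC. Of the 13 of these rows with at least 20 reads in both other libraries, 12 were at 0 in siLuc DAC. Of the 254 members at 0 in siLuc DAC, 229 had neighbouring rows outside the members, up to 5 rows either side, with at least 20 reads in the other libraries. In 89 of the 229 these rows were at 0 in siLuc DAC as well, so repeats of other classes beside the members were without reads too. Around L2a_1179_7 the opposite was seen, with 6, 307 and 53 reads in siLuc DMSO, siLuc DAC and siStau1 DAC over 21 rows, and reads in 3, 19 and 7 of those rows.

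**Figure D5:**
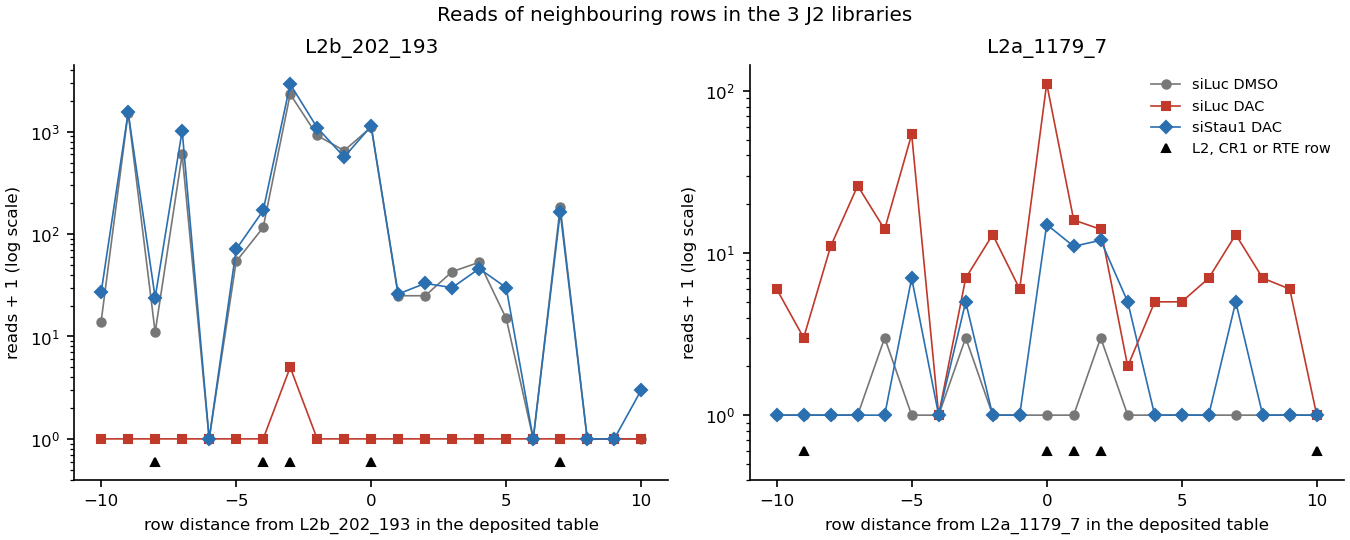
Points give reads plus 1 on a log axis (y) in the 3 J2 libraries for the 10 rows either side of L2b_202_193 and of L2a_1179_7 (x axis: distance in rows), with triangles for L2, CR1 and RTE rows. On the left the siLuc DAC library holds 4 reads over the 21 rows where siLuc DMSO holds 7668, and on the right it holds 307 where siLuc DMSO holds 6.

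More widely, the ratio of a member went with that of the rows beside it. The log2 ratio of a member and that of the summed non-member rows up to 5 rows either side had a Pearson correlation of 0.48 (Spearman 0.37; n = 42987) for siLuc DAC over siLuc DMSO. It was 0.58 (0.44; n = 50371) for siStau1 DAC over siLuc DAC, and 0.10 (0.11; n = 41202) for siStau1 DAC over siLuc DMSO. With rows 1000 further down it was 0.04, 0.03 and 0.01. Members and their neighbours come from the same libraries, and a read that spans 2 rows may be counted in both, so these are descriptions. The link between neighbours was thus weak in the pair of libraries that leaves out siLuc DAC.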

How the data were processed

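Per the submitters' processing notes, the build was hg38 and the tools were bcl2fastq 2.20, HISAT2 2.1.0, featureCounts, DESeq 1.36.0 and Cuffdiff and Cuffnorm 2.2.1, with no role given for each. The authors deposited 3 repeat tables, 1 per pair of J2 libraries, which list identical elements row by row. Each gives, per the file headers, a value per library and a log ratio, which was found to be to base 1.5 and was not used further. For siLuc DMSO the deposited values are read counts to which 1 was added. For siLuc DAC and siStau1 DAC the authors also multiplied that sum by a constant (1.92 and 1.27, of unstated origin), so the deposited values are a scaled signal. Each column was divided by its minimum and 1 was subtracted, which gave whole reads for 100.0% of values. Strand, how reads on several copies were shared and what the numbers in element names mean are not given in the sources used here, and near-identical copies are uncertain. Even read numbers were more common than odd ones (62.8%, 58.4% and 61.8% of detected members), as when both mates are counted; intervals are then too narrow.

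Reads were scaled to the sum of repeat reads in their library. Log2 ratios have 0.5 reads added, for elements whose reads in the pair of libraries sum to at least 20. Medians have 95% order-statistic intervals, shares Wilson intervals, and ratios of sums exact (Clopper-Pearson) counting intervals. Only for the fold values of named elements was a library at 0 set to a floor of 3 reads, and all medians and 2-fold counts keep the 0.5 reads added. No count model was fitted, since each J2 group has 1 library. The total RNA table gives the authors' FPKM per group and their q-value, per the file headers, with no value per library. STAU1, EPCAM, CDH1, KRT18, PTPRC and COL1A1 are its only genes used. Named are repeat names with at least 1000 reads; single elements are the 3 with most reads in each class and the 3 highest and 3 lowest per comparison with at least 100 reads; L2c_470_46, X15_LINE's and X6A_LINE's top elements were named after their values were seen. The class rule, lists and settings were chosen with earlier results of these data known. The alternatives were other scalings, other read minimums, 1 read added and top elements left out. Scripts ran in Python 3.11.15 with numpy 2.4.6, pandas 2.3.3 and scipy 1.17.1, and were tested on simulated data.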

Additional observations from a re-analysis of the deposited data

How the results depend on the processing

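Split by read level, some medians of the members turned sign with the scaling, as given above. Taken over all compared members, the 3 medians kept their signs under each setting tried. They are listed for siLuc DAC over siLuc DMSO, siStau1 DAC over siLuc DAC and siStau1 DAC over siLuc DMSO. With the authors' factors they were 1.65, -0.59 and 1.04, scaled to reads outside Alu 0.44, -0.059 and 0.36, and with the structural RNA classes also left out (a setting chosen after seeing the data) 0.22, -0.093 and 0.10. With at least 1 read they were 1.27, -0.32 and 0.73, with at least 100 reads 0.50, -0.13 and 0.35. Without elements at 0 in either library the first was 0.73. Members more than 2-fold above siLuc DMSO in siLuc DAC numbered 31244 with the authors' factors and 2606 with at least 100 reads. Those lower numbered 1099 with the authors' factors, 4532 outside Alu, 6153 with the structural RNA classes left out too and 344 with at least 100 reads. For siStau1 DAC over siLuc DAC, 696 were higher and 1259 lower with at least 100 reads. For siStau1 DAC over siLuc DMSO, 21736 were higher with the authors' factors, 7930 with Alu and structural RNA left out and 1488 with at least 100 reads, and 583, 3871 and 51 were lower. Fewer elements are compared at 100 reads; for the scalings the cause was not tested. Repeat names above 0 for siStau1 DAC over siLuc DAC numbered 1 with the authors' factors, 1 without each name's top element, and 12 both outside Alu and with the structural RNA classes left out. X6A_LINE turned to -0.18 without its top element and to -0.12 with the authors' factors. Shares outside Alu for siLuc DMSO, siLuc DAC and siStau1 DAC were 5.16%, 6.48% and 6.45% for L2, 0.774%, 1.02% and 1.08% for CR1, and 0.275%, 0.373% and 0.402% for RTE. Members at 0 with at least 100 reads in each other library numbered 0, 19 and 0 in siLuc DMSO, siLuc DAC and siStau1 DAC. The 3 medians were 0.76, -0.27 and 0.46 with 1 read added, and 0.78, -0.27 and 0.47 without members at 0 in siLuc DAC (also chosen after seeing the data). Without the top element of each name, 42 ratios of names left their counting interval with the same sign and 50 did not. No paired analysis was possible because each J2 group has 1 library. The depth leaves most members with too few reads for a ratio.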

Other observations

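Some short interspersed elements outside the members carry tails that are named after L2 or RTE, and their reads followed a similar order. The class 5S-Deu-L2 (2633 elements) held 11097, 16775 and 19175 reads in siLuc DMSO, siLuc DAC and siStau1 DAC. Its median log2 ratio was 0.91 (n = 185) for siLuc DAC over siLuc DMSO, -0.08 (n = 220) for siStau1 DAC over siLuc DAC and 0.65 (n = 187) for siStau1 DAC over siLuc DMSO. The class tRNA-RTE (5945 elements) held 15726, 28536 and 28231 reads, with medians of 0.87 (n = 374), -0.18 (n = 459) and 0.70 (n = 365). For siLuc DAC over siLuc DMSO 5S-Deu-L2 (interval 0.69 to 1.12) stood nearer to L2 (0.75) than MIR did (0.46). There tRNA-RTE (0.72 to 1.12) stood nearer to RTE (1.16) than MIR did. Yet hAT, at 0.72, was nearer to L2 than 5S-Deu-L2 was. For siStau1 DAC over siLuc DAC 5S-Deu-L2 was nearer to MIR (-0.07) than to L2 (-0.27), and tRNA-RTE nearer to MIR than to RTE (-0.32). For siStau1 DAC over siLuc DMSO MIR (0.38) was nearer to L2 (0.45) than 5S-Deu-L2 was, and tRNA-RTE was nearer to RTE (0.76) than MIR was. No test of these differences was made.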
